A study of Mus musculus with 6 samples.

Results

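The 7 genes described here, Wfdc18, Scgb1c1, Obp2a, Mt1, Mt2, Ermn and Sec14l3, are grouped here as genes of gland and supporting cell secretion. Wfdc18, Scgb1c1 and Obp2a encode secreted proteins, Mt1 and Mt2 metal-binding proteins, Sec14l3 a lipid-binding protein and Ermn a cytoskeletal protein. They were listed by symbol, out of 19938 genes on the array, and all 7 were measured, each by a single probe set. The list was drawn up with the difference between Fezf1-/- and Fezf1+/- arrays already known, so the members' values are given as a description. Limma was run on all genes, the members among them, and its calls among the members are counted below but are not a test of them. The products of Mt1, Mt2, Ermn and Sec14l3 act inside cells, and the list as a whole is not a marker set of one cell type.

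The olfactory epithelium is bathed in mucus that is made by Bowman's glands and by sustentacular cells, the glia-like supporting cells whose microvilli surround the cilia of the sensory neurons. Gland and supporting cells release odorant-binding lipocalins, secretoglobins and protease inhibitors into that mucus and carry a high load of detoxifying enzymes. Metallothioneins are small cysteine-rich proteins that hold zinc and copper, and the metal-sensing transcription factor Mtf1 switches on their genes through short promoter motifs called metal response elements.

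The cells came from mouse embryos of a C57BL/6 background at E18.5, whose main olfactory epithelium was microdissected and sorted by green fluorescence. One group was homozygous for the targeted Fezf1 allele (Fezf1-/-, 3 arrays) and the other carried a single copy of it (Fezf1+/-, 3 arrays). The targeted allele places EGFP under the endogenous Fezf1 promoter, so both groups carry it, cells of both were chosen by that promoter's activity, and no wild-type group is used here. Fezf1 is a zinc-finger transcription factor, and the comparison asks what changes in cells that use its promoter but lack its protein. Total RNA went onto one Affymetrix Mouse Gene 1.0 ST array per sample. Values are log2 signals, in which a step of 1 is a doubling. Nothing in the labels tells if a replicate is one embryo, one litter or a pool, so p-values measure only the spread between these samples. In sorted bulk RNA, fewer cells of a type and less RNA per cell cannot be told apart.

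Upstream sequences from RefSeq (build GRCm38.p6) were found for all 7 genes, and 4 of them are shown: the metallothionein pair, which lie next to each other on chromosome 8 and separated the groups on every array, and the 2 genes with the largest differences between the Fezf1-/- 2 and 3 arrays and the Fezf1+/- arrays. Each run ends at the base before the RefSeq start and is read 5′ to 3′ on the + strand. Capitals mark the core of a metal response element in Mt1 and Mt2, a TATA box in Wfdc18 and an Ebf core in Scgb1c1.
Mt1, chr8:94178839-94179088: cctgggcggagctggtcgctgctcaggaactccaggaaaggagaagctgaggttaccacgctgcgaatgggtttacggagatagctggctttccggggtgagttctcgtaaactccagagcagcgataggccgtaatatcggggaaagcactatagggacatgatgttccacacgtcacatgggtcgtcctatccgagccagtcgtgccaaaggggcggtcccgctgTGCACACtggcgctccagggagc
Mt2, chr8:94172368-94172617: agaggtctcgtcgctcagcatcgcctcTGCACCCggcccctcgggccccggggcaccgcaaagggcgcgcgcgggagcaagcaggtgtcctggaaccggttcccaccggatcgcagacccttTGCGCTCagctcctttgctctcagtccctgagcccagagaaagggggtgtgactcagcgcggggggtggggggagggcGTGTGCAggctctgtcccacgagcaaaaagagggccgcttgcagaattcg
Wfdc18, chr11:83708854-83709003: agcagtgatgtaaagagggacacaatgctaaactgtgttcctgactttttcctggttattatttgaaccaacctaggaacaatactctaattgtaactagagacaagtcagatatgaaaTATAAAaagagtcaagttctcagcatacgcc
Scgb1c1, chr7:140845415-140845564: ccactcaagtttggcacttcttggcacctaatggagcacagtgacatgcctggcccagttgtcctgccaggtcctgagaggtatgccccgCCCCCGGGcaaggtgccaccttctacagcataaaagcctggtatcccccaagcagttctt

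Motifs were searched on both strands of the 250 bases before each start, as the letters TGCACNC or TGCGCNC for the metal response element core, TGACNNNGC for the antioxidant response element core, TATAAA for the TATA box and CCCNNGGG for the Ebf core. The Mt2 window held 3 metal response element cores, beginning 223, 128 and 50 bases before the start. At least 1 such core stood in 21.4% of 32851 windows of the same length, and 3 or more in 1.26%. The Mt1 window held 1, beginning 23 bases before the start. A further 2 stood in the 50 bases after the RefSeq start of Mt1 and 1 in those of Mt2, where 5.72% of all promoters held 1 or more. Counts and positions rest on the RefSeq starts, and for Mt1 that start may lie upstream of the main one, so the numbers of Mt1 and Mt2 are not compared. The antioxidant core, present in 10.2% of windows, was found among the members in the Mt2 window alone. A TATA box, present in 12.4% of windows, began 31 bases before the start of Wfdc18 and 61 bases before that of Obp2a. An Ebf core, present in 11.8% of windows, began 60 bases before the start of Scgb1c1 and 28 before that of Sec14l3, and 2 stood in the Mt2 window. No matches overlapped in these windows, and the Ermn window held none of the motifs. A match describes letters only and is not a bound site.

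Fezf1 itself stood at 5.56, 5.92 and 6.28 on the Fezf1-/- arrays, against 11.25, 11.12 and 11.30 on the Fezf1+/- arrays (difference -5.31, SE 0.19, limma adjusted p = 0.000755). One array, Fezf1-/- 1, stood apart from the rest. Its values correlated with those of the other arrays at 0.905 to 0.935 across genes, while the other 5 correlated with each other at 0.975 to 0.995. Genes of mesenchyme, myeloid cells and glia were high on it, as described below. The members are therefore given with that array shown separately, and list genes by their differences with and without it where it moved them by over 1.5 times.

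Wfdc18 had the widest separation. It encodes a small secreted protein with a whey acidic protein (WAP) domain, a fold found in many protease inhibitors. Wfdc18 signal was 10.30 on Fezf1-/- 1 and 7.15 and 7.47 on Fezf1-/- 2 and 3, against 9.63, 10.33 and 9.87 on the Fezf1+/- arrays. The Fezf1-/- 2 and 3 values lay at least 2.16 below every Fezf1+/- value, while Fezf1-/- 1 fell inside the Fezf1+/- range. The mean was 8.31 ± 1.74 in Fezf1-/- and 9.94 ± 0.36 in Fezf1+/- cells (SD, n = 3 each), which differ by -1.64 (SE 0.84). Without Fezf1-/- 1 the difference was -2.63 (SE 0.21), a 6.21-fold lower signal in Fezf1-/- cells. Without Fezf1-/- 2 it was -1.06.

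Scgb1c1 followed the same course. It belongs to the secretoglobins, small dimeric proteins secreted onto mucosal surfaces. Scgb1c1 signal was 10.15 on Fezf1-/- 1 and 7.91 and 7.95 on Fezf1-/- 2 and 3, against 9.20, 9.75 and 9.18 on the Fezf1+/- arrays. Fezf1-/- 1 was the highest of all 6 arrays, and the other Fezf1-/- arrays were the lowest, separated from each other by 0.04. The difference was -0.71 (SE 0.62) over all arrays and -1.45 (SE 0.18), or 2.73-fold lower in Fezf1-/- cells, without Fezf1-/- 1. It was -0.33 without Fezf1-/- 2 and -0.35 without Fezf1-/- 3.

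Obp2a, an odorant-binding lipocalin, behaved differently from the other secreted members. Its signal was 3.57 on Fezf1-/- 1 and 3.68 and 3.86 on Fezf1-/- 2 and 3, against 3.70, 5.44 and 5.08 on the Fezf1+/- arrays. The 3 Fezf1-/- arrays sat together and Fezf1-/- 1 did not stand out. The groups overlapped, because Fezf1+/- 1 lay as low as the Fezf1-/- arrays. These low values lie under the lower quartile of probe sets, 4.30 to 4.44 on the 6 arrays, where the background estimate bears on the differences, so no fold is given. The mean was 3.70 ± 0.15 in Fezf1-/- and 4.74 ± 0.92 in Fezf1+/- cells (SD, n = 3 each), which differ by -1.03 (SE 0.44) that became -1.55 without Fezf1+/- 1 and -0.68 without Fezf1+/- 2.

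**Figure D1:**
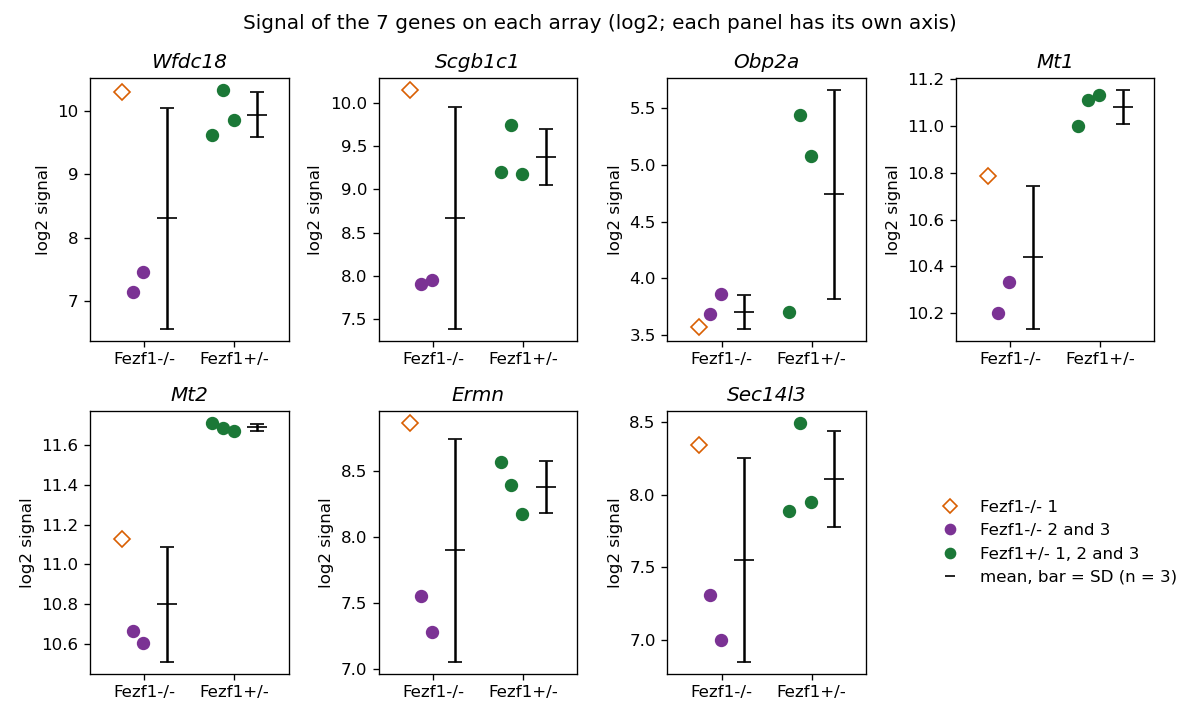
Log2 signal of the 7 genes on each array, Fezf1-/- on the left and Fezf1+/- on the right of each panel, with the mean and SD of each group (n = 3) beside the points. Open diamonds are Fezf1-/- 1, which lies inside or above the Fezf1+/- range for Wfdc18, Scgb1c1, Ermn and Sec14l3, and below it for Obp2a, Mt1 and Mt2.

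The metallothioneins Mt1 and Mt2 separated the groups on every array. Mt2 signal was 11.13 on Fezf1-/- 1 and 10.66 and 10.60 on Fezf1-/- 2 and 3, against 11.71, 11.68 and 11.67 on the Fezf1+/- arrays. The Fezf1+/- arrays thus spanned 0.04, while the gap between them and the Fezf1-/- 2 and 3 arrays was at least 1.01. The mean was 10.80 ± 0.29 in Fezf1-/- and 11.69 ± 0.02 in Fezf1+/- cells (SD, n = 3 each), which differ by -0.89 (SE 0.15), or a 1.85-fold lower signal in Fezf1-/- cells. Without Fezf1-/- 1 it was -1.05 (SE 0.09), or 2.08-fold lower.

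Mt1 signal was 10.78 on Fezf1-/- 1 and 10.20 and 10.33 on Fezf1-/- 2 and 3, against 11.0005, 11.11 and 11.13 on the Fezf1+/- arrays. All Fezf1-/- values were again below all Fezf1+/- values, with Fezf1-/- 1 in between the other arrays of both groups. The mean was 10.44 ± 0.31 in Fezf1-/- and 11.08 ± 0.07 in Fezf1+/- cells (SD, n = 3 each), which differ by -0.64 (SE 0.17), or 1.56-fold lower in Fezf1-/- cells. Leaving out Fezf1-/- 1 gave -0.81 (SE 0.10), and leaving out any other array gave -0.52 to -0.68. Mt1 and Mt2 encode near-identical small proteins, and how far their probe sets share transcripts was not examined.

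Ermn encodes ermin, a cytoskeletal protein best known from myelinating oligodendrocytes. Its signal was 8.86 on Fezf1-/- 1 and 7.56 and 7.28 on Fezf1-/- 2 and 3, against 8.57, 8.39 and 8.18 on the Fezf1+/- arrays. As for Scgb1c1, the highest array was Fezf1-/- 1 and the lowest were Fezf1-/- 2 and 3. The difference was -0.48 (SE 0.41) over all arrays, -0.96 (SE 0.15) without Fezf1-/- 1, -0.31 without Fezf1-/- 2 and -0.17 without Fezf1-/- 3.

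Sec14l3 encodes a lipid-binding protein of the Sec14-like family. Its signal was 8.34 on Fezf1-/- 1 and 7.31 and 7.0007 on Fezf1-/- 2 and 3, against 7.89, 8.49 and 7.95 on the Fezf1+/- arrays. Fezf1-/- 1 lay inside the Fezf1+/- range, and Fezf1-/- 2 and 3 lay at least 0.58 below it. The difference was -0.56 (SE 0.37) over all arrays and -0.95 (SE 0.20) without Fezf1-/- 1. It was -0.37 without Fezf1+/- 2 and -0.28 without Fezf1-/- 3.

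Side by side, the members fell into 3 patterns by where Fezf1-/- 1 lay, with Obp2a on its own. On that array Wfdc18, Scgb1c1, Ermn and Sec14l3 stood 0.36, 0.77, 0.48 and 0.23 above their Fezf1+/- means, and 1.19 to 3.00 above the mean of Fezf1-/- 2 and 3. Mt1 and Mt2 deviated from their Fezf1+/- means by -0.30 and -0.56 on it, and stood 0.52 and 0.49 above the mean of Fezf1-/- 2 and 3. Obp2a deviated by -1.17 from its Fezf1+/- mean and by -0.21 from the mean of Fezf1-/- 2 and 3. Its Fezf1-/- values all lay under the lower quartile of probe sets, so Fezf1-/- 1 does not set its pattern. Fezf1-/- 1 was thus above both other Fezf1-/- arrays for 6 of 7 members, as it was for 37.3% of all genes. On Fezf1-/- 2 and 3 every member lay below its Fezf1+/- mean, with deviations between -2.80 (Wfdc18 on Fezf1-/- 2) and -0.75 (Mt1 on Fezf1-/- 3).

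**Figure D2:**
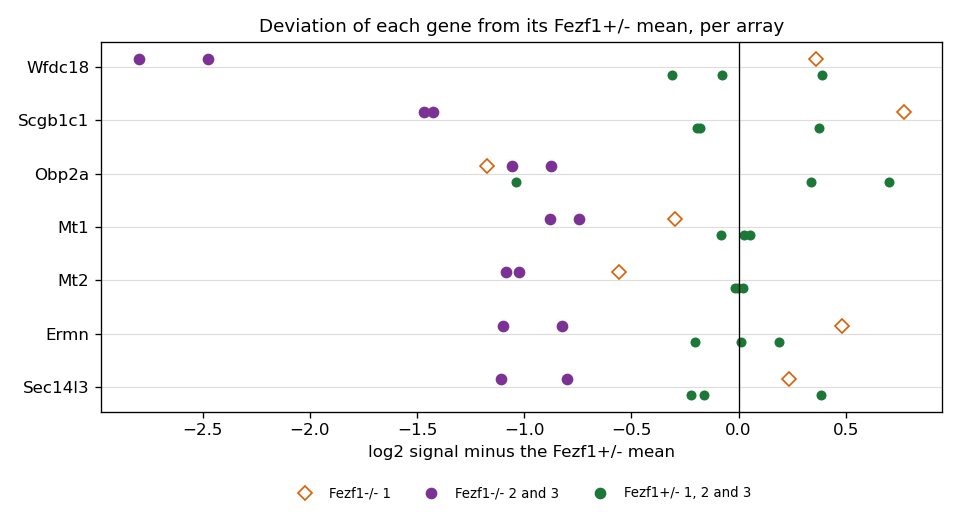
Deviation of each gene from its own Fezf1+/- mean, in log2 units, on each array, with Fezf1-/- arrays drawn above Fezf1+/- arrays in each row. Fezf1-/- 2 and 3 (filled purple) lie below 0 for every gene, between -2.80 and -0.75, whereas Fezf1-/- 1 (open diamonds) lies between -1.17 and 0.77.

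All Fezf1-/- values lay below all Fezf1+/- values for 2 of 7 members, Mt1 and Mt2, against 8.77% of all genes. With Fezf1-/- 1 set aside, the other Fezf1-/- arrays lay below all Fezf1+/- arrays for 6 of 7, against 16.3% of all genes. The exception was Obp2a. In 4 of 7 members Fezf1-/- 2 and 3 lay below all Fezf1+/- arrays while Fezf1-/- 1 lay within or above their range, against 7.57% of all genes. All 7 differences were negative both over all arrays and without Fezf1-/- 1, against 45.2% and 44.7% of all genes. Over all 6 arrays limma called 0 of 7 members, against 0.552% of all genes in either direction and 0.456% as lower, and 2 members had an unadjusted p under 0.05, against 9.48%. Without Fezf1-/- 1 it called 5 of 7, all lower in Fezf1-/- cells, against 2.66% of all genes in either direction and 1.67% as lower. The members were listed with values of this contrast known, so these counts describe the choice. Set beside the shares of all genes they are not a test of the members, with or without Fezf1-/- 1, and nothing is read from them. The median difference of the members was -0.71 over all arrays and -0.97 without Fezf1-/- 1, beside medians of 0.02 and 0.02 over all genes.

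Markers of other cells moved with Fezf1-/- 1. The 15 measured mesenchyme and bone genes averaged 9.67 on Fezf1-/- 1 and 6.78 and 6.41 on Fezf1-/- 2 and 3, against 6.30 to 7.18 on the Fezf1+/- arrays, and all 15 were highest on Fezf1-/- 1. The 14 myeloid genes averaged 7.56 on it and 5.46 and 5.38 on the other Fezf1-/- arrays, against 5.16 to 5.49 on the Fezf1+/- arrays, and again all 14 were highest there. Ensheathing glia genes averaged 8.70 on Fezf1-/- 1, with 7 of 8 highest there, and 6.70 and 6.72 on Fezf1-/- 2 and 3, against 6.34 to 6.94 on the Fezf1+/- arrays. Endothelial genes averaged 6.68 on it, with 10 of 10 highest there, and 5.24 and 5.24 on Fezf1-/- 2 and 3, against 5.13 to 5.62 on the Fezf1+/- arrays. None of these genes lay below the lower quartile of genes (4.86 to 4.97) on every array. Genes induced by tissue dissociation, such as Fos and Jun, averaged 10.26 on Fezf1-/- 1, with 10 of 11 highest there, and 9.27 and 9.13 on Fezf1-/- 2 and 3, against 9.33 to 9.65 on the Fezf1+/- arrays. The part of these cells and of dissociation in the members' values was not tested. With Fezf1-/- 1 left out, the differences of Wfdc18, Scgb1c1, Mt1, Mt2, Ermn and Sec14l3 were larger than over all arrays.

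Sustentacular and gland markers other than the members were also higher on Fezf1-/- 1 than on Fezf1-/- 2 and 3 for most genes. The 10 measured sustentacular genes averaged 10.02 on Fezf1-/- 1 and 9.03 and 8.95 on Fezf1-/- 2 and 3, against 9.17 to 9.49 on the Fezf1+/- arrays. Of these, 9 of 10 were higher on Fezf1-/- 1 than on both other Fezf1-/- arrays, as were 37.3% of all genes. By limma 0 of 10 passed over all arrays, where Krt8, a keratin of the apical epithelium, differed by 0.67 (SE 0.18, adjusted p = 0.3) and Acsm4, an acyl-CoA synthetase of the olfactory epithelium, by -0.61 (SE 0.21, adjusted p = 0.451). At an unadjusted p under 0.05 stood 1 higher and 1 lower gene. Without Fezf1-/- 1, 0 passed and the median was -0.53, beside -0.05 over all arrays. In that fit 9 of 10 differences were negative, against 44.7% of all genes, and 6 were lower at an unadjusted p under 0.05. Nothing is read from the 6, because the share of all genes was not counted without Fezf1-/- 1. The smallest p-values in that fit belonged to the carbonyl reductase Cbr2 (-0.58, SE 0.11, limma adjusted p = 0.055, against -0.22 over all arrays) and the flavin monooxygenase Fmo2 (-0.64, SE 0.13, limma adjusted p = 0.0673, against -0.08 over all arrays).

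Bowman gland genes, 15 of them measured, averaged 6.95 on Fezf1-/- 1 and 6.05 and 5.91 on Fezf1-/- 2 and 3, against 6.36 to 6.66 on the Fezf1+/- arrays. None of the 15 passed by limma in either fit, with 0 at an unadjusted p under 0.05 over all arrays and 7 lower without Fezf1-/- 1. Nothing is read from the 7, because the share of all genes was not counted without Fezf1-/- 1. Their median difference was -0.18 over all arrays and -0.43 without Fezf1-/- 1. Without that array Sox9, a transcription factor of the glands that also marks cartilage, differed by -0.71 (SE 0.14, limma adjusted p = 0.0506, against -0.18 over all arrays) and the iron-binding secretory protein gene Ltf by -1.14 (SE 0.23, limma adjusted p = 0.062, against -0.68 over all arrays). Over all arrays the potassium channel gene Kcnn4 differed by -0.37 (SE 0.17) and the lipocalin gene Obp1a by -0.18 (SE 0.11), and 4 of the 15 genes, all lipocalins, lay below the lower quartile of genes on every array. The sorted cells are labelled only as cells using the Fezf1 promoter. The neuronal marker Omp stood at 9.09 on Fezf1-/- 1 and 10.77 and 10.84 on Fezf1-/- 2 and 3, against 11.84, 11.82 and 12.12 on the Fezf1+/- arrays, so the sorts of both groups held signal of neurons as well as of supporting and gland cells.

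**Figure D3:**
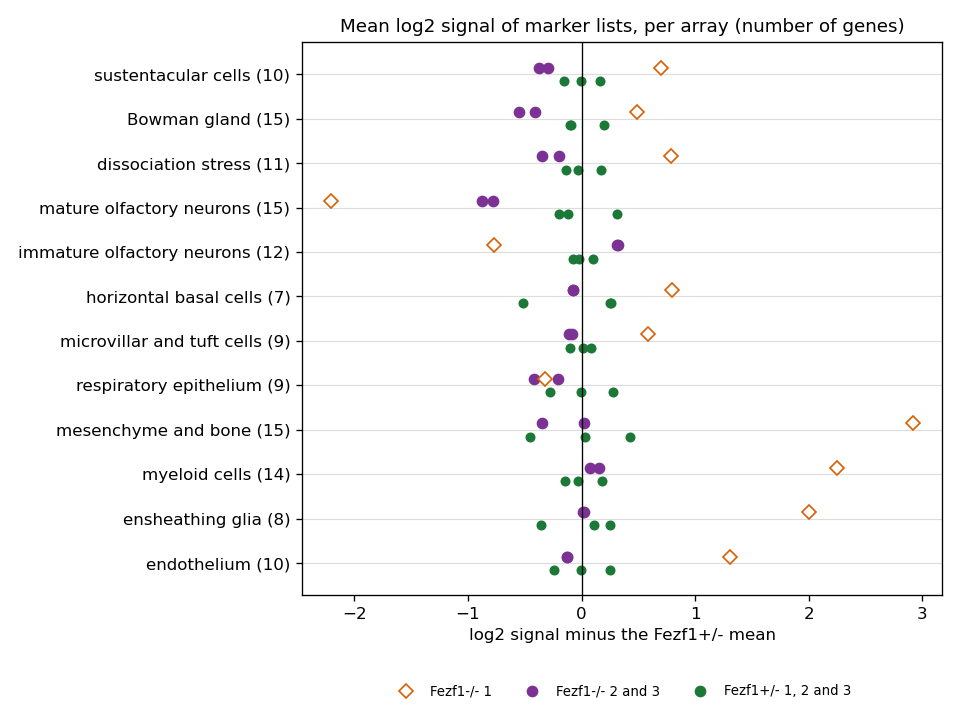
Mean log2 signal of each marker list on each array, minus its Fezf1+/- mean, with the number of genes in brackets. Open diamonds are Fezf1-/- 1, which stands 2.92 above the Fezf1+/- mean for mesenchyme and bone, 2.25 for myeloid cells and 0.70 for sustentacular cells, and at -2.20 for mature olfactory neurons. For sustentacular and Bowman gland genes the Fezf1-/- 2 and 3 arrays lie below all Fezf1+/- arrays, as they do for mature olfactory neurons and dissociation stress.

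Genes of zinc handling other than Mt1 and Mt2 went in both directions. Of 27 measured genes for other metallothioneins, Mtf1 and the zinc transporters, 0 passed by limma over all arrays and 1 rose without Fezf1-/- 1. At an unadjusted p under 0.05 over all arrays stood 3 higher and 0 lower genes, against 9.48% of all genes in either direction. The share of all genes was not counted without Fezf1-/- 1, where 3 were higher and 3 lower. The lower ones were the zinc transporter genes Slc39a9 (-0.48, limma adjusted p = 0.0512), Slc39a2 (-0.56, limma adjusted p = 0.0878) and Slc30a4 (-0.46, limma adjusted p = 0.221), which differed by -0.18, -0.26 and 0.20 over all arrays. Medians were -0.05 over all arrays and -0.04 without Fezf1-/- 1. The gene that rose was Slc30a1, the plasma membrane zinc exporter, which like the metallothioneins is switched on by Mtf1. Its signal was 7.79 on Fezf1-/- 1 and 7.95 and 7.87 on Fezf1-/- 2 and 3, against 7.20, 7.30 and 7.13 on the Fezf1+/- arrays. Fezf1-/- 1 did not stand apart for this gene, and all Fezf1-/- values were above all Fezf1+/- values, in the direction opposite to Mt1 and Mt2. The difference was 0.66 (SE 0.09, limma adjusted p = 0.0614) over all arrays and 0.69 (SE 0.10, limma adjusted p = 0.0188) without Fezf1-/- 1.

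Mtf1 itself stood at 6.43 on Fezf1-/- 1 and 6.68 and 6.76 on Fezf1-/- 2 and 3, against 6.75, 6.70 and 6.81 on the Fezf1+/- arrays (difference -0.13, limma adjusted p = 0.733, and -0.04 without Fezf1-/- 1). Mt3, the metallothionein of neurons, differed by -0.10 (limma adjusted p = 0.76, and -0.03 without Fezf1-/- 1) and Mt4, that of stratified epithelia, by 0.03 (limma adjusted p = 0.934, and 0.09 without Fezf1-/- 1). The groups overlapped for both. Mt4 lay below the lower quartile of genes (4.86 to 4.97) on every array, as 3 of the 27 zinc handling genes did in all. The zinc transporter gene Slc39a13 differed by 0.43 (SE 0.13, limma adjusted p = 0.379). Of 13 genes that answer to metals, oxidants or glucocorticoids, the other signals known to act on metallothionein genes, 0 passed over all arrays and Slc30a1 alone without Fezf1-/- 1, with medians of 0.07 and -0.14. Without Fezf1-/- 1, 10 of the 13 differences were negative and 3 positive, against 44.7% of all genes negative. Hmox1, the haem oxygenase gene induced by metals and oxidants, differed by 0.05 over all arrays and -0.03 without Fezf1-/- 1, and the glucocorticoid-induced Fkbp5 by -0.003 and -0.005. Tsc22d3 differed by 0.11 over all arrays and -0.27 without Fezf1-/- 1, and Zbtb16 by 0.18 and -0.23. Per1 differed by 0.15 and -0.17, and Klf9 by 0.77 and 0.15. The quinone reductase gene Nqo1 differed by -0.87 (SE 0.50, limma adjusted p = 0.646) over all arrays and by -0.29 without Fezf1-/- 1, the array on which it stood at 8.70, against 10.37 and 10.50 on Fezf1-/- 2 and 3. Mtf1, Mt3, Mt4, Hmox1, Fkbp5, Tsc22d3, Zbtb16, Per1 and Klf9, and the 3 lower transporters, are named for their role or direction. They were chosen after their values were seen.

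Among relatives of the secreted members, 1 lipocalin and 1 secretoglobin were far lower in Fezf1-/- cells. Of 17 lipocalins and related carriers, 1 fell over all arrays and 1 without Fezf1-/- 1, and in both fits it was Lcn11. Its signal was 4.53, 5.08 and 5.07 on the Fezf1-/- arrays, against 10.38, 11.52 and 11.23 on the Fezf1+/- arrays, with no Fezf1-/- array near the Fezf1+/- arrays (difference -6.15, SE 0.32, limma adjusted p = 0.00216). The median of the lipocalin list was 0.04 over all arrays and 0.03 without Fezf1-/- 1, and 10 of the 17 lay below the lower quartile of genes on every array. Of 28 secretoglobin and WAP-domain genes, Scgb2b27 fell in both fits, and list medians were 0.02 and 0.04. Its signal was 3.75, 3.28 and 3.38 on the Fezf1-/- arrays, against 5.26, 6.47 and 6.06 on the Fezf1+/- arrays. The difference was -2.46 (SE 0.32, limma adjusted p = 0.0467), its size depends on the background estimate because the Fezf1-/- values lie below the lower quartile, and the call was lost in 6 of 12 alternatives (limma adjusted p up to 0.251), among them leaving out Fezf1-/- 2, Fezf1-/- 3, Fezf1+/- 2 or Fezf1+/- 3. In this list 15 of 28 genes lay below the lower quartile of genes on every array.

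Members of the Sec14-like family other than Sec14l3 included 1 gene of 9 that fell without Fezf1-/- 1 and 0 over all arrays, with medians of -0.18 and -0.11. That gene was Sec14l2, a tocopherol-binding relative, at 8.79 on Fezf1-/- 1 and 8.34 and 8.15 on Fezf1-/- 2 and 3, against 8.85, 8.83 and 8.74 on the Fezf1+/- arrays (-0.56, SE 0.10, limma adjusted p = 0.043 without Fezf1-/- 1, and -0.38 over all arrays). Over all arrays Sec14l5 differed by -0.83 (SE 0.18, limma adjusted p = 0.198) and Sec14l4 by -0.83 (SE 0.19, limma adjusted p = 0.222). For both genes all Fezf1-/- values lay below all Fezf1+/- values, as for 3 of the 9 genes in all, against 8.77% of all genes. Ermin resembles the ezrin, radixin and moesin proteins, which tie actin to the membrane. Of the genes for these proteins and their partners, 0 of 5 passed in either fit, with medians of -0.04 over all arrays and -0.26 without Fezf1-/- 1. Without Fezf1-/- 1, Msn differed by -0.45, Slc9a3r1 by -0.42, Rdx by -0.19 and Nf2 by -0.13. Over all arrays the differences were 0.02 for Msn, -0.11 for Slc9a3r1, 0.16 for Rdx and -0.22 for Nf2. Of 9 myelin genes 0 passed in either fit, with medians of 0.15 and 0.05. Mobp differed by 0.16 over all arrays and 0.17 without Fezf1-/- 1. Mal differed by 0.73 over all arrays and 0.09 without Fezf1-/- 1, the array on which it stood at 8.29, against 6.40 and 6.36 on Fezf1-/- 2 and 3. Ugt8a differed by -0.26 over all arrays and -0.49 (SE 0.10, limma adjusted p = 0.0628) without Fezf1-/- 1.

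**Figure D4:**
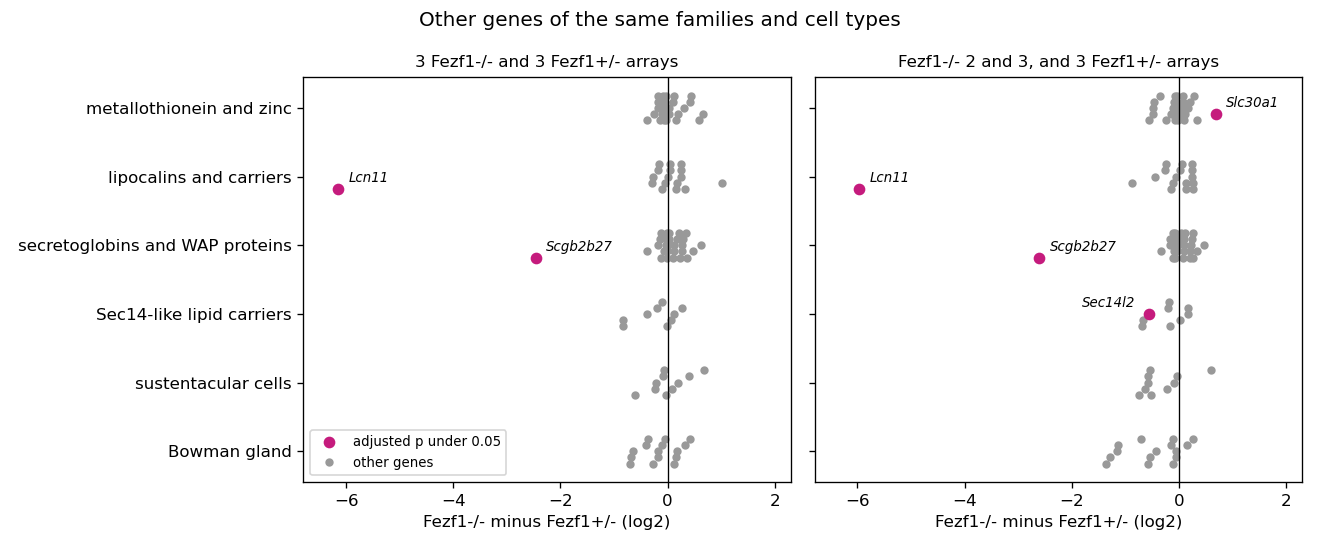
Difference between Fezf1-/- and Fezf1+/- cells (log2) for each gene of 6 lists that exclude the members, over all 6 arrays on the left and without Fezf1-/- 1 on the right. Coloured points passed an adjusted p of 0.05 by limma. These are Lcn11 (-6.15 and -5.97) and Scgb2b27 (-2.46 and -2.60) in both panels, and Slc30a1 (0.69) and Sec14l2 (-0.56) on the right.

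Genes with the most similar course were found by the root mean square (RMS) difference between profiles over the 6 arrays, each taken as log2 values minus the gene's own Fezf1+/- mean. These are descriptions of 6 points that share arrays. For Ermn the nearest were AU021092 (RMS 0.08), the transmembrane serine protease gene Tmprss2 (0.12) and clusterin, Clu (0.13). Sec14l3 was nearest to Gstm2, a glutathione S-transferase (0.12), the acid phosphatase gene Acpp (0.13) and Rida (0.14). Scgb1c1 was nearest to Rgs5 (0.19), the cytokine receptor gene Lifr (0.24) and Suclg2, a subunit of a mitochondrial ligase (0.25). Rgs5, for example, stood at 10.002 on Fezf1-/- 1 and 7.87 and 7.71 on Fezf1-/- 2 and 3, against 9.18, 9.39 and 8.67 on the Fezf1+/- arrays. It is well known as a gene of pericytes.

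Wfdc18 had no close match. Its nearest genes were the calcium pump gene Atp2a3 (RMS 0.56), BC018473 (0.56) and Scgb1c1 (0.71). The profile of Mt2 was closest to those of Sqor, a mitochondrial sulfide oxidoreductase (0.15), the guanine deaminase gene Gda (0.16) and Atp2c2, a Golgi calcium and manganese pump (0.17). Mt1 ranked 7 among the 19937 other genes by closeness to Mt2, at 0.19. The genes closest to Mt1 were Olfr1290 (0.09), the ciliary gene Cc2d2a (0.10) and the calmodulin kinase gene Camk4 (0.10), and Mt2 ranked 41. The profile of Obp2a was closest to 2 odorant receptors, Olfr618 (0.26) and Olfr193 (0.27), whose signals are as low as its own, and to 1700007K13Rik (0.28). Among members, Ermn and Sec14l3 were 0.25 apart, Scgb1c1 was 0.37 from Sec14l3 and 0.38 from Ermn, and Obp2a was 0.60 or more from all others.

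Genes that neighbour the members on their chromosomes differed in both directions. Taking 2 measured protein-coding genes on each side gave 24 distinct genes. By limma 0 passed over all arrays and 1 without Fezf1-/- 1, against 0.552% and 2.66% of all genes. Over all arrays 4 had an unadjusted p under 0.05, against 9.48% of all genes. Their median difference was 0.03 over all arrays and 0.05 without Fezf1-/- 1, beside 0.02 and 0.02 over all genes. In both fits 11 of 24 were negative, near the 45.2% and 44.7% of all genes. The members were listed with their differences known, so the neighbours are not compared with them. The gene that passed was Sec14l2, which lies on chromosome 11 beyond Mtfp1 on one side of Sec14l3, with Sec14l4 next to it on the other side. Wfdc17 and Wfdc21, the WAP-domain neighbours of Wfdc18, differed by 0.62 (limma adjusted p = 0.631) and 0.17 (limma adjusted p = 0.73) over all arrays, and by 0.27 and 0.11 without Fezf1-/- 1. Obp2b, near Obp2a on chromosome 2, stood between 3.91 and 4.11 on the Fezf1-/- arrays and between 4.02 and 4.19 on the Fezf1+/- arrays. On chromosome 8, Mt1 and Mt2 lie between Mt3 and the nucleoporin gene Nup93, which differed by -0.27 (limma adjusted p = 0.527).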

How the data were processed

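Sorted cells of 3 Fezf1-/- and 3 Fezf1+/- samples were hybridised to 1 array each, from 100 ng of total RNA per the labels' protocols. Per the submitters' processing notes the authors used GCRMA and Affymetrix Expression Console, and they deposited one log2 signal for each probe set. The order of these tools, their versions, filters and any batch handling are not given in the sources used here. Base 2 was inferred from the range of the values (2.14 to 14.5). Array medians lay between 5.82 and 5.95, and no further normalisation was applied. GCRMA subtracts an estimated background, so values near the bottom depend on that estimate. Scanner files were not used here, so signal over background was not examined per probe. The number of arrays limits the precision.

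Of 35557 probe sets, 21789 carried 1 gene symbol, 1621 several and 12147 were not listed. Symbols were updated through Entrez numbers to RefSeq names for 21698 of them, and each of 19938 genes was represented by the probe set whose mean over the 6 arrays was highest. All genes were compared, as Fezf1-/- minus Fezf1+/-, by lmFit and eBayes of limma 3.58.1, run in R 4.3.3 (two-sided, Benjamini-Hochberg adjustment over all genes, threshold 0.05), without a filter on low values. SEs are limma's. Exact tests of 3 against 3 values cannot pass 0.05 and were not run. Members were left out of the 20 lists of related genes and cell markers. Members, lists and tests were chosen with earlier results of these data known. Named were all members, from each list up to 3 genes past the threshold by size or else the 2 with the smallest p (in the 6-array fit and in that without Fezf1-/- 1), and the 3 nearest profiles of each member. Chromosomal neighbours, motifs and a few genes named for their role were added after the values were seen. The script was tested on simulated data with known changes.

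Alternatives were quantile normalisation, median centring, a filter at the median gene mean, averaging of probe sets, trend and robust eBayes, array weights, leaving out each array, and a block for the replicate number.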

Additional observations from a re-analysis of the deposited data

How the results depend on the processing

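The fit over all 6 arrays called 110 genes, and 2 of the list genes, Lcn11 and Scgb2b27. Leaving out 1 array gave 40 to 531 genes (531, 40 and 51 without Fezf1-/- 1, 2 and 3, and 69, 55 and 45 without Fezf1+/- 1, 2 and 3) and 1 to 12 list genes. Array weights gave 740 genes and 16 list genes, and the filter at the median mean, which tests fewer genes, 24 and 1. Quantile normalisation left 1 list gene. For the changes in calls other than the filter, the cause was not tested. The replicate number as a block gave 88 genes and 1 list gene. Deviations of same-numbered arrays from their group means correlated at 0.23, -0.33 and 0.54. The Fezf1-/- mean includes Fezf1-/- 1, so these values cannot show whether same-numbered samples were paired, and the labels do not say. Lcn11 passed in 13 of 13 alternatives and Slc30a1 in 2 of 13, array weights and leaving out Fezf1-/- 1. Each member kept a negative difference in the alternatives that could change its value, and none moved by more than the pooled SD of both groups. Fezf1-/- 1 widens that SD for the members other than Obp2a. For Obp2a the Fezf1+/- arrays do so, with an SD of 0.92 against 0.15 in Fezf1-/- cells. Leave-one-out values lay at -2.63 to -1.06 for Wfdc18, -1.45 to -0.33 for Scgb1c1, -1.55 to -0.68 for Obp2a, -0.81 to -0.52 for Mt1, -1.05 to -0.79 for Mt2, -0.96 to -0.17 for Ermn and -0.95 to -0.28 for Sec14l3. Low signal limits Obp2a, Scgb2b27, Chl1, Mt4 and most lipocalins.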

Other observations

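Olfactory neuron markers gave the setting in which the gland and supporting cell genes were measured. Of 15 mature neuron genes, 0 passed by limma over all 6 arrays and 6 fell without Fezf1-/- 1, with medians of -1.28 and -0.90 and 12 lower at an unadjusted p under 0.05 over all arrays. Of all genes, 1.67% fell without Fezf1-/- 1, and 9.48% had an unadjusted p under 0.05 over all arrays in either direction. Kirrel2 (-1.21, SE 0.14, limma adjusted p = 0.0083), Stoml3 (-1.17) and the exchanger gene Slc24a4 (-1.15) fell in the fit without Fezf1-/- 1. Over all arrays Kirrel2 differed by -1.67 and Stoml3 by -1.83. Over all arrays Slc24a4 differed by -1.07 (limma adjusted p = 0.0635) and Pde1c by -0.97 (limma adjusted p = 0.0694). Of 12 immature neuron genes, 0 passed over all arrays and 2 rose without Fezf1-/- 1, where 0.993% of all genes rose. These were Stmn4 (0.94) and Chl1 (0.77), against 0.35 and 1.15 over all arrays. The size for Chl1 depends on the background estimate, because its Fezf1+/- values (4.36 to 4.56) lie below the lower quartile of genes. List medians were -0.11 over all arrays and 0.33 without Fezf1-/- 1. Hdac2 of this list differed by -0.39 (limma adjusted p = 0.668) over all arrays and by -0.11 without Fezf1-/- 1.

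Other epithelial and blood lists held no called gene by limma in either fit. Horizontal basal cell genes (7) had medians of 0.14 over all arrays and -0.19 without Fezf1-/- 1, microvillar and tuft cell genes (9) of 0.10 and 0.03, respiratory epithelium genes (9) of -0.42 and -0.31, and erythroid genes (5) of 0.12 and 0.09. Medians of mesenchyme and bone were 1.11 and -0.07, of myeloid cells 0.84 and 0.13, of ensheathing glia 0.66 and 0.07, of endothelium 0.31 and -0.14, and of dissociation genes 0.09 and -0.30. At an unadjusted p under 0.05 over all arrays, 2 respiratory genes were lower, 1 microvillar gene was higher, and 0 genes of the other lists in this paragraph passed. Fezf1-/- 1 moved many of these genes by over 1.5 times. Over all arrays and then without Fezf1-/- 1, differences were 0.83 and 0.33 for S100a9 and 0.86 and 0.30 for Cd68 of myeloid cells, and 0.88 and 0.23 for S100b of glia. They were 0.66 and 0.23 for Cldn5 and 0.27 and 0.09 for Vwf of endothelium, and 0.51 and 0.27 for Sp7 and 0.54 and 0.17 for Col2a1 of bone and cartilage. They were 0.48 and 0.28 for Icam1 of basal cells, 0.43 and 0.26 for Trpm5 of microvillar cells, and 0.33 and -0.04 for Junb of the dissociation list. They were 0.15 and -0.59 for Erbb3 of glia, -0.05 and -0.41 for Esam and 0.23 and -0.26 for Pecam1 of endothelium. They were 0.22 and -0.40 for Itga6 of basal cells and 0.26 and -0.47 for Ascl3 of microvillar cells. In the dissociation list they were 0.04 and -0.55 for Ier2 and 0.13 and -0.40 for Fosb. Differences moved less for Krt15 (0.78 and 0.78), Avil (0.27 and 0.24), Ngfr (0.31 and 0.32), Hba-x (0.23 and 0.20), Hbb-y (-0.23 and -0.21) and Hspb1 (-0.32 and -0.48). In the fit without Fezf1-/- 1, 6 of 10 endothelial, 3 of 8 glia and 5 of 7 basal cell differences were negative. So were 4 of 9 microvillar and 11 of 11 dissociation differences, against 44.7% of all genes. Without Fezf1-/- 1, Foxi1, a transcription factor of microvillar cells, differed by -0.65 (SE 0.13, limma adjusted p = 0.0545, against -0.10 over all arrays) and Pdgfra, a receptor of mesenchyme, by -0.85 (SE 0.18, limma adjusted p = 0.066, against 0.47 over all arrays). In the respiratory list Cfap126 differed by -0.80 (SE 0.20, limma adjusted p = 0.249) and Foxj1, a regulator of motile cilia, by -0.42 (SE 0.16, limma adjusted p = 0.504). The secretory protein gene Bpifa1, which stands in the gland list as well, was 12.99 on Fezf1-/- 1 and 10.45 and 10.26 on Fezf1-/- 2 and 3, against 10.89, 12.66 and 11.37 on the Fezf1+/- arrays. Like Wfdc18, it was lower on Fezf1-/- 2 and 3 than on any Fezf1+/- array (-1.29, SE 0.47, limma adjusted p = 0.249 without Fezf1-/- 1, and -0.41 over all arrays).

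Among Fezf1+/- arrays, Fezf1+/- 2 was the highest for 4 of 7 members, against 26.7% of all genes. That array also had the highest mean of the Fezf1+/- arrays in 13 of the 20 gene lists. Some genes stand in several lists, so the lists are not separate counts.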
